A study of Mus musculus with 2 samples.

Results

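Adolescent Dpp4/Pi16 interstitial progenitors are a subset of the fibroblast-like cells in the stromal vascular fraction (SVF) of subcutaneous fat, the fraction that holds all cells of the tissue except mature adipocytes. They were gated from the counts in 3 steps. A cell had to have at least 1% of its unique molecular identifiers (UMIs, tags that let each captured mRNA molecule be counted once) in the stromal genes Col1a1, Col1a2, Col3a1 and Dcn, and at most 1 UMI of Ptprc, the pan-leukocyte gene. It then had to have at least 0.1% of its UMIs in Pi16, Dpp4, Anxa3, Sema3c, Wnt2 and Cd55 together. In the adolescent library, 1604 of 3915 cells passed the stromal steps and 1073 of these passed all steps, which is 66.9% of the stromal cells (exact binomial 95% interval 64.5 to 69.2) and 27.4% of the library (26.0 to 28.8). The remaining 531 stromal cells were the comparison group and are called other stromal cells here. The 2 libraries together held 9344 cells.

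The adolescent library came from wild type male C57BL/6J mice at post natal week 2, and the adult library from wild type males of the same strain at post natal week 8. At both ages, inguinal fat was digested with collagenase, dead cells were excluded by 7-AAD staining and live cells were sorted, so each share given here is a share of the live sorted cells that a digest released. The cells of several mice were pooled at each age into 1 library made with the 10x Genomics 3′ v2 chemistry. With 1 library per age there was no replicate. No gene was therefore tested, cells were not used as replicates, age and library cannot be told apart, and all 95% intervals cover counting error only. The libraries shared 22 cell barcodes.

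The progenitors carried 11187468 UMIs, with a median of 10886 per cell (quartiles 6955 and 13493), 2921 detected genes per cell and a mitochondrial share of 1.66%. The other stromal cells carried 4818432 UMIs, with a median of 9293 per cell, 2635 genes and a mitochondrial share of 1.82%. The progenitors were thus somewhat deeper, and after each cell had been thinned to 2000 UMIs the medians were 947 genes in the progenitors and 932 in the other stromal cells. The doublet caller Scrublet marked 15 of the 1073 progenitors (1.40%) against 1.58% of the whole library.

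Interstitial progenitors are described in mouse fat as multipotent fibroblasts of the connective tissue sheets that surround the fat lobules. They are known for the surface proteins DPP4 and CD55 and the secreted protein PI16, and they are placed upstream of committed preadipocytes, which express Icam1, Pparg and lipid-handling genes. Wnt and TGF-beta signals are known to hold such cells back from adipocyte differentiation, while loss of these signals and gain of PPAR-gamma go with commitment.

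The cells were chosen by the summed level of the 6 gate genes, so these levels are a description and no check of the label. The median progenitor had 0.464% of its UMIs in them (quartiles 0.314% and 0.629%, highest 1.64%), against 0.0245% in the other stromal cells, of which 73 had none. All 6 genes were detected in 630 progenitors (58.7%). Pi16 supplied 60.6% of the marker UMIs. The gate cut a thinly filled part of a continuous range rather than an empty gap. In bins of 0.05 percentage points, 432 and 99 cells lay under the line and 53 and 47 in the first bins above it. The bin that starts at 0.4% held 106. Within 0.02 percentage points of the line lay 47 stromal cells (2.93%), 21 inside and 26 outside. The 3 cells just inside had 0.10018%, 0.10179% and 0.10247%, and the 3 just outside 0.09997%, 0.09962% and 0.09774%. In the cells near the line, 30 further progenitor genes summed to a median of 1.65% of UMIs per cell, between 2.67% in all progenitors and 0.746% in the other stromal cells. Committed preadipocyte genes summed to 0.293% near the line, 0.104% in all progenitors and 1.09% in the other stromal cells.

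**Figure D1:**
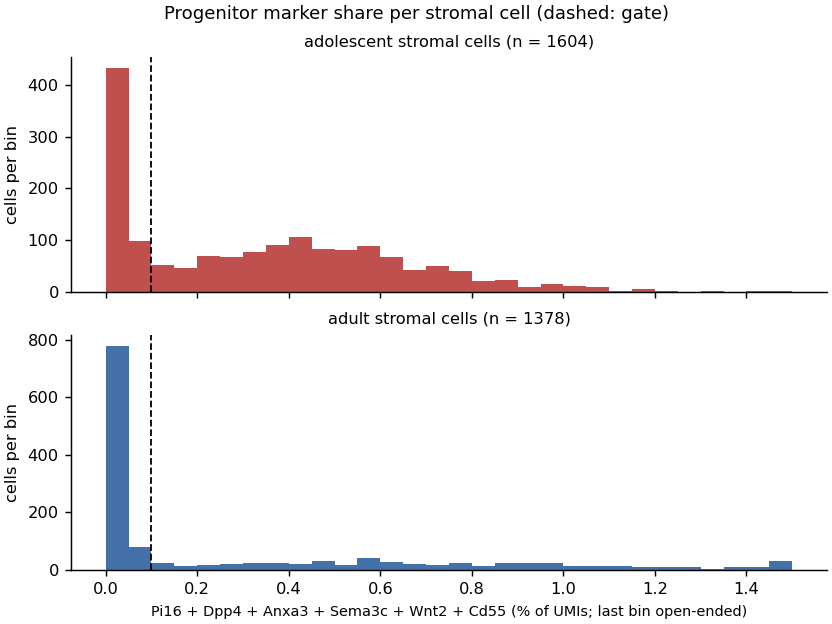
Number of stromal cells (y axis) by the share of UMIs in the 6 gate genes (x axis, percent, bins of 0.05), for the adolescent library (top) and the adult library (bottom). The dashed line is the gate at 0.1%, and most adolescent stromal cells lie in a broad hump above it, with 1073 cells inside the gate and 531 outside.

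Each gate gene was also measured in cells gated on the other 5 alone, a level that such a gate did not use, in CPM, which scales the pooled UMIs of each group of cells to one common total. Pi16, a secreted peptidase inhibitor, stood at 3165 CPM (95% interval 3130 to 3200) in the 943 cells gated without it and at 455 CPM (438 to 472) in the rest, 6.96-fold higher. Wnt2, a Wnt ligand, stood at 222 CPM against 13.6, the largest ratio of the 6 at 16.4-fold (12.8 to 21.3). Cd55, a complement regulator, had the smallest ratio, 5.67-fold (4.95 to 6.51). Dpp4, a dipeptidyl peptidase, was 8.96-fold higher, Sema3c, a semaphorin, 7.51-fold and Anxa3, an annexin, 10.4-fold. Each of the 6 genes was thus higher in cells chosen without it. By construction, each set of cells was contained in the full gate, and the 6 genes were put together as markers of the same cell type. The ratios therefore describe how the gate genes go together and are no check of the label.

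**Figure D2:**
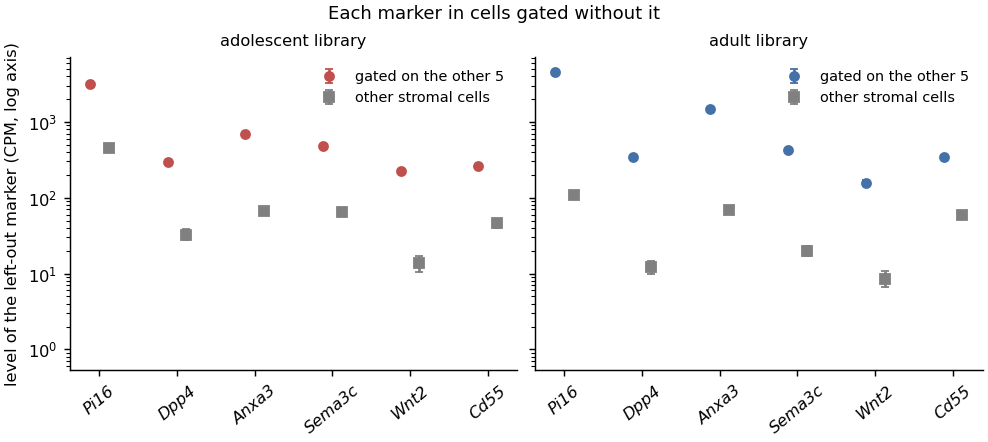
Level of each gate gene (CPM, log axis) in stromal cells gated on the other 5 genes (circles) and in the stromal cells that failed that gate (squares), adolescent library left and adult library right. Bars are exact Poisson 95% intervals, which are smaller than the symbols for most points, and all 6 circles lie above their squares in both libraries.

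To see what else set the progenitors apart, UMIs were summed over the 1073 progenitors and over the 531 other stromal cells and scaled to CPM, and the log2 ratio was taken with 1 UMI added to each sum. A gene counted as measured when either sum reached 20 CPM. Of 5479 such genes, 297 (5.42%) were at least 2-fold higher in the progenitors and 337 (6.15%) at least 2-fold lower, with 95 and 139 past 4-fold. The median log2 ratio of all genes was -0.03 (quartiles -0.28 and 0.23). The gate used the same cells, so these counts describe the contrast and support nothing by themselves. A gene that reached 20 CPM in one sum alone had to be higher there.

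The genes named first are the 15 of highest and the 15 of lowest ratio among those that reached 50 CPM in either sum. With these gates Akr1c18 had the highest ratio, followed by Krtdap and Dact2. Akr1c18, which encodes the 20-alpha-hydroxysteroid dehydrogenase that inactivates progesterone, stood at 1292 CPM (1271 to 1313) in the progenitors and 29.9 CPM (25.2 to 35.2) in the other stromal cells. The ratio was 43.2-fold (36.7 to 51.3), and the progenitor level was also far above the 37.9 CPM in B and T cells of the same library. Those cells serve here as a guide to the level of free RNA, and whether they express the gene was not tested. Akr1c14, a 3-alpha-hydroxysteroid dehydrogenase encoded 41927 bp away, stood at 142 CPM against 8.09 CPM, 17.6-fold (12.8 to 24.8). Over the alternative settings the log2 ratio of Akr1c18 ran from 3.61, with Pi16 left out of the gate, to 5.74, and that of Krtdap from 4.40 to 5.44. After thinning to 2000 UMIs, Akr1c18 was detected in 70.7% of progenitors (67.9 to 73.5), 6.29% of other stromal cells and 6.56% of B and T cells. Its share in the other stromal cells was thus near that in B and T cells. Before thinning the shares were 88.1%, 20.5% and 13.9%, at median depths of 10886, 9293 and 3522 UMIs.

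Krtdap and Sbsn, a pair of genes known for secreted proteins of the differentiating epidermis, were both high. Krtdap stood at 431 CPM (419 to 443) in the progenitors and 12.7 CPM (9.68 to 16.3) in the other stromal cells, 34.0-fold. Sbsn, which encodes suprabasin, stood at 416 CPM against 28.8 CPM, 14.4-fold (12.2 to 17.2). Detected in 59.8% of progenitors before thinning, Krtdap was less evenly spread than Sbsn, at 77.8%. The 6 keratinocyte and epithelial markers, all detected, together gave 69 UMIs in the progenitors (6.17 CPM), 52 of them from Epcam. In the other stromal cells they summed to 7.06 CPM, with Krt14, Krt15, Cdh1 and Trp63 at 0.

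Krtdap and Sbsn lie close together on the plus strand of chromosome 7 (GRCm38), Sbsn at 30751471 to 30756134 and Krtdap at 30787896 to 30791097. Dmkn, a further protein-coding gene that was under 20 CPM in both sums, lies between them at 30763756 to 30781063. Their promoters are shown because both genes were high in the progenitor sum. The RefSeq sequences give the 250 bases before each start site on GRCm38.p6, Sbsn chr7:30751221-30751470 and Krtdap chr7:30787655-30787904, with capitals marking TGANTCA (the AP-1 letters) and TATAAA (the TATA letters).
Sbsn: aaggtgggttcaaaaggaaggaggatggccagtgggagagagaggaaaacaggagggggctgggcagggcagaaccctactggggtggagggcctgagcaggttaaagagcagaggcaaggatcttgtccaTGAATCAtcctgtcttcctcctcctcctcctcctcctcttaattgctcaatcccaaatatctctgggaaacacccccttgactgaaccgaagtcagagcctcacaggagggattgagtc
Krtdap: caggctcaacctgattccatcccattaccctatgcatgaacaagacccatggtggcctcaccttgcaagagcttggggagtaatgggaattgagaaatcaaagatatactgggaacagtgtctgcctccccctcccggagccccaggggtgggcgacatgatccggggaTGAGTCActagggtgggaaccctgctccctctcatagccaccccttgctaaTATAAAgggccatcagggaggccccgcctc
Each window held 1 TGANTCA match, and that of Krtdap held 1 TATAAA match as well. Searched on both strands, TGANTCA was in 6.75% of 32851 promoter windows of this length and in at least one window of 7.82% of 27025 genes. It was in at least one window of 22 of the 223 higher genes with a promoter entry (9.87%), 24 of 250 lower genes (9.6%) and 4.87% of the 3862 genes within 2-fold. TATAAA was in 12.4% of all windows and in windows of 14.3% of all genes, 11.7% of higher, 16.4% of lower and 7.61% of within-2-fold genes. Akr1c18 and Akr1c14 held neither set of letters in these windows. Also searched were CCAAT (the CCAAT box), TGACGTCA (the cAMP response element), CTTTGAT (the TCF/LEF letters), CANNTG (the E-box) and GGGCGG (the GC box). The GC box letters, for one, were in windows of 65.9% of higher, 58.0% of lower and 68.4% of within-2-fold genes. These are matches of letters, not sites.

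Other leading genes included signalling and cytoskeletal proteins. Gap43, known for the growth cones of neurons, stood at 296 CPM (286 to 307) against 13.5 CPM, 22-fold (17.2 to 28.5). Bmp7, a bone morphogenetic protein, stood at 126 CPM against 6.02 CPM, 21.0-fold (14.5 to 31.4). Wnt10b, a Wnt ligand known to restrain adipogenesis, stood at 55.2 CPM against 2.70 CPM, 20.5-fold (11.9 to 38.7). Each of these ligands was low in both the other stromal cells and the B and T cells. Dact2, a Dishevelled-binding protein, was 30.6-fold higher (18.7 to 53.7), the actomyosin regulator Limch1 21.5-fold, the sulfotransferase Chst1 18.0-fold and the microtubule protein Stmn4 16.4-fold. The 15 highest were completed by the ubiquitin hydrolase Uchl1 (13.2-fold), the cytokine Il18 (12.7-fold), Lurap1l (12.3-fold) and the sphingomyelinase Smpd3 (11.7-fold).

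On the lower side, Fabp4, the fatty acid carrier of adipocytes, stood at 35.7 CPM (32.3 to 39.3) in the progenitors and 1095 CPM (1066 to 1125) in the other stromal cells, 30.7-fold lower. Its share of cells after thinning, 6.11% of progenitors (4.75 to 7.73), was at the 6.10% seen in B and T cells, whereas 47.8% of other stromal cells had a UMI. Before thinning it was 23.9% of progenitors, 64.6% of other stromal cells and 11.6% of B and T cells. The Fabp4 level was uneven inside the gate, at 130 CPM in the 100 progenitors of lowest marker share and 25.2 CPM in the 668 of highest. Col15a1, a basement membrane collagen, stood at 14.4 CPM against 500 CPM, 34.7-fold lower. Car3, the carbonic anhydrase of fat and muscle, stood at 2.95 CPM against 142 CPM, 48.1-fold lower, and at 37.2 CPM in B and T cells. Ccl19, a chemokine, had the lowest ratio of the 15 (0.626 CPM against 56.0 CPM, 89.6-fold lower), with 7 UMIs in the progenitors. It is one of several gene copies with this symbol, so reads may have been split or lost between copies and its value is uncertain. The rest of the 15 lowest included Gm2564, Spon1, Olfm2, Vtn, Sparcl1, Plvap, Inmt, Steap4, Prlr and Adam12. Their log2 ratios ran from -5.60 for Gm2564 to -4.23 for Adam12, a metalloprotease. Prlr, the prolactin receptor, stood at 7.69 CPM against 149 CPM.

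Genes known for interstitial progenitors and universal fibroblasts followed the gate. Of 30 such genes outside the gate, all 30 were measured, 26 were at least 2-fold higher and none was at least 2-fold lower, with a median log2 ratio of 2.1 against -0.03 for all genes. The list was chosen with earlier results of these data known. It holds Dact2, Gap43, Bmp7, Limch1, Stmn4, Uchl1 and Smpd3 from the 15 highest genes above. Its count therefore describes the contrast and is no check of the label. Mfap5, a microfibril protein, stood at 4915 CPM against 1043 CPM, 4.71-fold (4.58 to 4.85). Fbn1, which encodes fibrillin-1, stood at 1836 CPM against 440 CPM, 4.17-fold. Cd34, the sialomucin often used to sort fat stromal cells, stood at 1060 CPM against 384 CPM, 2.76-fold (2.63 to 2.90). The 4 members within 2-fold were Opcml, Tnxb, Ly6a and Thy1, with log2 ratios of 0.95, 0.86, 0.69 and 0.47. Ly6a, which encodes SCA-1, is thus a gene that both groups carried, at 3222 CPM and 2001 CPM.

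Committed preadipocyte genes were the mirror image. Of 20 listed, 18 were measured and 17 were at least 2-fold lower, with a median log2 ratio of -3.58 and none at least 2-fold higher. This list, too, was chosen with earlier results of these data known. It holds Fabp4, Col15a1 and Sparcl1 from the 15 lowest genes, so its count is likewise a description. The exception was Col5a3, at -0.71. Pparg, the nuclear receptor that drives adipocyte differentiation, stood at 3.84 CPM (2.78 to 5.18) in the progenitors and 47.9 CPM (42.0 to 54.5) in the other stromal cells, 12.5-fold lower. Apoe, the lipid carrier, stood at 351 CPM against 5230 CPM, and at 1085 CPM in B and T cells. Dlk1, the inhibitor of adipogenesis also called Pref-1, stood at 109 CPM (103 to 116) against 1080 CPM (1051 to 1110), 9.88-fold lower. Lpl, lipoprotein lipase, was 6.44-fold lower. The list holds Dlk1, which acts against differentiation, beside genes of lipid uptake. Genes of the F3-positive stromal population, described as a regulator of adipogenesis, were low too, with 9 of 11 measured genes at least 2-fold lower (median -2.07) and none higher. Mgp, matrix Gla protein, led them at 36.7 CPM against 369 CPM.

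Transcription factors of adipogenesis mostly did not differ by 2-fold. Of 21 listed, 12 were measured, 3 were at least 2-fold lower (6.15% of all genes were) and none higher, with a median of -0.17. The 3 were Pparg, Cebpa at 10.5 CPM against 63.3 CPM, 6.00-fold lower, and Nr2f2 at 12.7 CPM against 50.2 CPM. Early factors were near equal, with log2 ratios of -0.39 for Cebpb, -0.17 for Cebpd, -0.24 for Ebf1 and 0.41 for Ebf2. Zfp521, which opposes commitment, had a log2 ratio of 0.74. Of 13 thermogenic genes, 2 were measured: Cox8b, a mitochondrial subunit of brown and beige fat, at 0.894 CPM against 46.9 CPM, and Ebf2, already given. The other 11 were under 20 CPM in both sums.

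Few Wnt ligands other than Wnt2 were measured. Of 13 ligands and R-spondins, 4 were measured and 3 were at least 2-fold higher: Rspo3, Wnt10b and Wnt11. Among all measured genes, 5.42% were at least 2-fold higher and 6.15% lower. Rspo3, an R-spondin that strengthens Wnt signals, had 467 UMIs (41.7 CPM) in the progenitors and 3 UMIs (0.623 CPM) in the other stromal cells, a ratio of 67.0 with an interval from 22.8 to 326. Wnt11 stood at 26.6 CPM against 9.75 CPM, and Wnt5a at 51.2 CPM against 70.4 CPM. Among 7 measured receptors and co-receptors, Lgr4, the R-spondin receptor, was 2.30-fold higher and Fzd4 3.63-fold lower, while Fzd1, Fzd2, Fzd7, Lrp6 and Ryk were within 2-fold. Of 5 measured secreted inhibitors, Sfrp2 was high at 1432 CPM against 314 CPM, 4.56-fold (4.32 to 4.81), whereas Dkk2 and Sfrp1 had log2 ratios of -1.57 and -1.52. Of 3 measured Wnt readouts, Dact1 was 3.50-fold higher (94.4 CPM against 27 CPM), Ccnd1 2.70-fold higher and Myc had a log2 ratio of -0.39.

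BMP ligands made up most of the higher genes of their family. Of 15 TGF-beta, activin and BMP ligands, 9 were measured, 5 were at least 2-fold higher and 2 at least 2-fold lower. Over all genes, 5.42% were higher and 6.15% lower. Beside Bmp7, Bmp3 stood at 52.6 CPM against 5.81 CPM, 9.06-fold (6.20 to 13.8), Bmp2 at 28.1 CPM against 7.68 CPM and Bmp4, which drives preadipocyte commitment, at 46.5 CPM against 12.9 CPM. Tgfb2 was just past 2-fold, with a log2 ratio of 1.06. Gdf10 stood at 43.6 CPM against 167 CPM and Gdf15 at 4.56 CPM against 25.3 CPM. Of 8 measured receptors, Tgfbr2 was 2.83-fold higher at 243 CPM against 85.7 CPM, Acvr2a had a log2 ratio of -1.86, and the other 6 were within 2-fold. Of 10 measured binding proteins, Chrd (chordin, 27.4 CPM against 7.68 CPM), Fstl1 (3490 CPM against 1362 CPM) and Nbl1 (450 CPM against 195 CPM) were at least 2-fold higher and none was lower. Readouts of the pathway went both ways: Cyr61 had a log2 ratio of 1.06 and Id1, a BMP target, -2.01, with 7 of 10 within 2-fold.

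Matrix genes differed in both directions, and most were within 2-fold. The shares over all genes were 5.42% at least 2-fold higher and 6.15% lower. Of 18 elastic fibre and microfibril genes, all measured, 5 were at least 2-fold higher (Adamtsl4, Mfap5, Fbn1, Emilin2 and Efemp1) and 3 at least 2-fold lower (Mfap4, Fbln1 and Emilin1). Adamtsl4, which binds microfibrils, stood at 192 CPM against 36.1 CPM, 5.32-fold, whereas Mfap4 stood at 118 CPM against 489 CPM. Basement membrane genes had none at least 2-fold higher and 5 of 14 at least 2-fold lower. Col4a1 stood at 53.5 CPM against 813 CPM, 15.2-fold lower, and Col4a2 at 37.7 CPM against 442 CPM, 11.7-fold lower. These genes of the type IV collagen chains lie head to head on chromosome 8 and overlap at their starts, from 11312805 to 11312826. Laminin genes were within 2-fold, with log2 ratios from -0.09 for Lamb1 to 0.77 for Lamb2. Of 9 further collagens, Col14a1 was higher at 1062 CPM against 381 CPM and the other 8 were within 2-fold. The hyaluronan genes Has1 (220 CPM against 28.6 CPM, 7.67-fold), Has2 (4.32-fold) and Ugdh, which makes the sugar precursor (548 CPM against 188 CPM), were all higher, and Bgn, the proteoglycan biglycan, stood at 222 CPM against 1079 CPM.

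Secreted immune genes also split. Of 17 measured complement, chemokine and cytokine genes, 3 were at least 2-fold higher and 7 at least 2-fold lower (median -0.40). Over all genes the shares were 5.42% and 6.15%. Ptgs2, the inducible cyclooxygenase, stood at 90.2 CPM against 12.7 CPM, 7.12-fold (5.50 to 9.38), and Il6 at 85.0 CPM against 25.3 CPM. Il33 was at the threshold, with a log2 ratio of 1.02. Cxcl12, the ligand of CXCR4, stood at 181 CPM against 764 CPM, and Cxcl14 at 0.894 CPM against 45.5 CPM. The complement genes C4b, C1ra, C1s1 and C3 had log2 ratios of -2.94, -1.78, -1.69 and -1.06.

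Of 11 measured genes of the insulin-like growth factor axis, 2 were at least 2-fold higher, 2 at least 2-fold lower and 7 within 2-fold. Among all genes, 5.42% were higher and 6.15% lower. Igfbp5, a binding protein, stood at 1259 CPM against 243 CPM, 5.19-fold higher, and Igfbp6 at 3064 CPM against 694 CPM, 4.42-fold higher. Igfbp7 stood at 232 CPM against 3219 CPM, 13.9-fold lower, and Igf1 at 164 CPM against 479 CPM, 2.92-fold lower. The binding proteins Igfbp3 and Igfbp4 had log2 ratios of -0.69 and -0.95. Igf2, the fetal growth factor, was within 2-fold at 168 CPM (161 to 176) against 105 CPM (95.7 to 114). Of 14 measured imprinted genes, Cdkn1c, a cell cycle inhibitor, was higher at 672 CPM against 238 CPM, while Dlk1, Zim1, Mest and Peg3 were at least 2-fold lower. H19 was within 2-fold at 2638 CPM and 1478 CPM.

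Slc7a10, the neutral amino acid transporter also called Asc-1 that the study follows, was close to the 2-fold line. It stood at 23.6 CPM (20.8 to 26.6) in the progenitors and 12.2 CPM (9.32 to 15.8) in the other stromal cells, 1.93-fold (1.45 to 2.60), with 0.993 CPM in B and T cells. Over the alternative settings its log2 ratio ran from 0.34, with cells thinned to 2000 UMIs before the gates, to 1.52, against cells with none of the 6 markers. After thinning, 3.76% of progenitors (2.70 to 5.09) and 2.48% of other stromal cells had a UMI, against 0.154% of B and T cells. Srr, the serine racemase, stood at 11.4 CPM against 10.8 CPM. None of the 6 measured genes of neutral amino acid handling passed 2-fold in either direction. Of 9 measured growth factor receptors, 1 was at least 2-fold higher, Axl at 622 CPM against 174 CPM, and 2 at least 2-fold lower, Agtr2 and Pdgfrb. The shares over all genes were 5.42% and 6.15%. Pdgfra, the receptor that marks fat stromal cells, was within 2-fold at 146 CPM against 254 CPM.

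**Figure D3:**
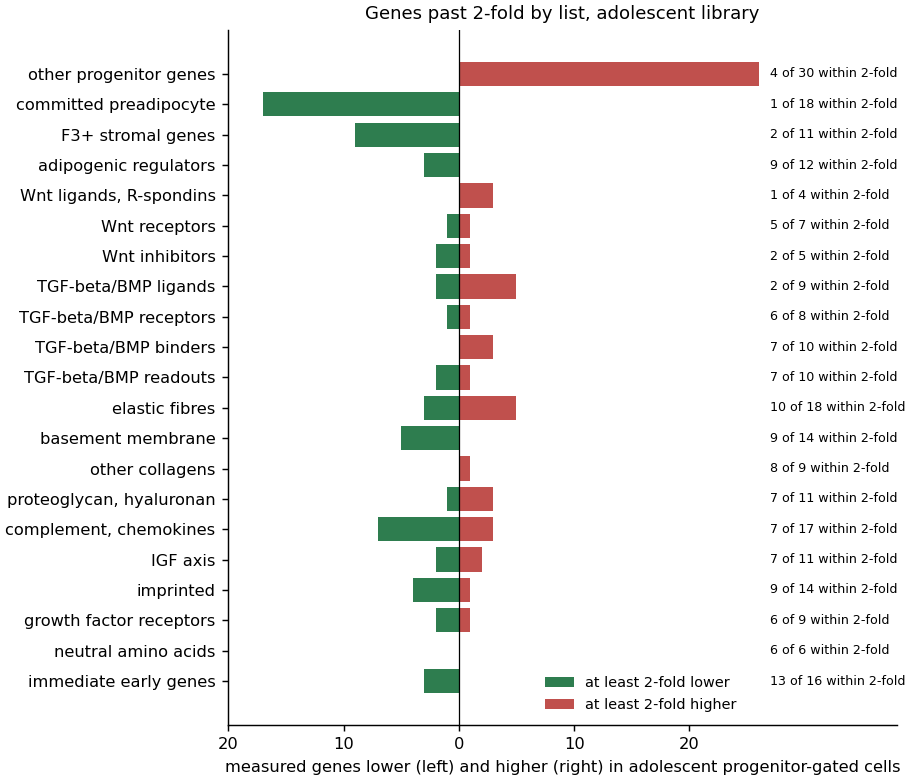
Number of measured genes at least 2-fold lower (green, left) and at least 2-fold higher (red, right) in the adolescent progenitors than in the other stromal cells, for each gene list, with the number within 2-fold printed at the right. Other progenitor genes lie on the higher side alone (26 of 30) and committed preadipocyte genes on the lower side alone (17 of 18). Both lists were chosen with earlier results of these data known. The other lists lie on both sides, on one side or on neither.

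Cell cycle genes were low in both groups. After thinning, 8.00% of progenitors (6.44 to 9.79) and 9.90% of other stromal cells had at least 2 UMIs of 16 S phase genes, against 21.3% of B and T cells. For 16 genes of G2 and M phase the shares were 1.98%, 2.67% and 16.1%. Before thinning the S phase shares were 57.0%, 53.7% and 46.4%. Immediate early genes, which tissue digestion is known to induce, were mostly within 2-fold. Of 16 measured, 3 (Egr2, Jun and Zfp36) were at least 2-fold lower and none higher, with a median log2 ratio of -0.73. Over all genes, 6.15% were at least 2-fold lower. Jun stood at 1211 CPM against 2766 CPM and Fos at 2708 CPM against 4341 CPM. Their part in the other differences was not tested.

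Summed levels of other cell types' markers were low, and several lists had near-equal sums. The 9 macrophage markers all had UMIs and summed to 247 CPM in the progenitors and 283 CPM in the other stromal cells, led by Lyz2 at 121 CPM and 134 CPM. At least 3 of them had UMIs in 266 progenitors (24.8%) and 88 other stromal cells (16.6%), at median depths of 10886 and 9293 UMIs. For B and T cell markers these were 49 (4.57%) and 21 (3.95%), and for Schwann cell markers 46 (4.29%) and 42 (7.91%). All 9 B and T cell markers summed to 93.3 CPM and 104 CPM, led by Cd79a, and the 6 neutrophil markers to 118 CPM and 131 CPM, led by S100a9 in the progenitors and S100a8 in the other cells. All 8 Schwann cell markers summed to 356 CPM and 358 CPM, of which Pmp22 gave 3492 of 3984 UMIs in the progenitors. Pmp22 stood at 312 CPM and 241 CPM, so the rest of this list was lower in the progenitors, with S100b at least 2-fold lower. Erythrocyte markers summed to 34.9 CPM and 38.8 CPM, led by Hbb-bs and with Alas2 at 0 in the other cells. Mature adipocyte markers were uneven, at 7.24 CPM and 189 CPM, led by Car3 in both, with Lep at 0 in both groups and Pck1 at 0 in the progenitors. Tendon and muscle progenitor markers gave 14 UMIs in the progenitors (1.25 CPM, led by Chodl), with Mkx and Pax7 at 0, and 7.68 CPM in the other cells.

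Endothelial and mural lists were higher in the progenitors through 1 gene each. The 9 endothelial markers summed to 136 CPM against 40.3 CPM, and Tek, an angiopoietin receptor, gave 1462 of the 1516 progenitor UMIs at 131 CPM against 29.3 CPM. No progenitor had UMIs of 3 or more endothelial markers. For mural markers, 14 progenitors (1.3%) and 5 other stromal cells (0.942%) did. The 9 mural markers summed to 138 CPM against 71.8 CPM, with Kcnj8, a potassium channel subunit, giving 1200 of 1542 UMIs at 107 CPM against 18.9 CPM and Myh11 at 0. Mesothelial markers summed to 19.8 CPM and 11.2 CPM, led by Krt19, with Msln, Upk1b and Lrrn4 at 0 in the progenitors. The part of these transcripts in other results was not tested.

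Levels of the leading genes are given next over the range of the marker share. Stromal cells were binned at 0, above 0 to under 0.1%, 0.1 to under 0.2%, 0.2 to under 0.4% and 0.4% and over, with 73, 458, 100, 305 and 668 cells. Akr1c18 stood at 23.9, 30.5, 267, 1036 and 1547 CPM over these bins, low under the gate and higher in each bin inside it. Krtdap was still low just inside the gate, at 31.1 CPM in the lowest progenitor bin, 229 CPM in the middle and 573 CPM in the highest. Dact2 stood at 27.3, 57.9 and 131 CPM over the same 3 bins. All 15 of the highest genes were ordered upward over the 3 progenitor bins, against 25.4% of the 5479 measured genes, and 13 of the 15 lowest downward, against 22.5%. Those 30 genes were picked from the contrast of the same cells, so nothing is read from these counts. Col4a1 stood at 271, 52.2 and 22.8 CPM and Dlk1 at 399, 117 and 64.3 CPM, against 797 CPM and 1090 CPM in the bin just under the gate. Igfbp5 stood at 208, 554 and 1706 CPM, against 243 CPM in all other stromal cells. Eln, which encodes elastin, was highest in the lowest progenitor bin, at 1215, 1116 and 896 CPM. Slc7a10 stood at 11.7, 18.3 and 27.5 CPM. The bins follow the values that chose the cells and describe a range, not types.

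**Figure D4:**
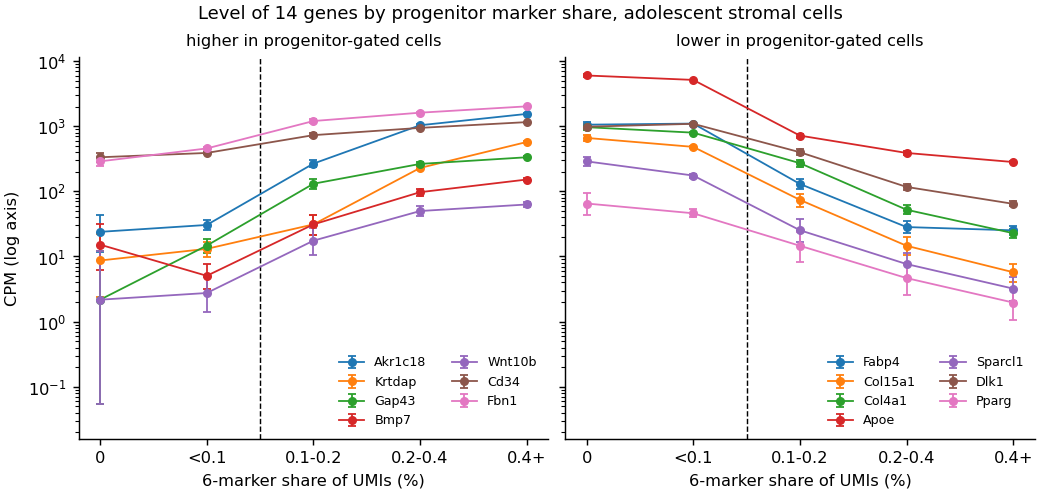
Level (CPM, log axis) of 7 genes that were higher (left) and 7 that were lower (right) in the adolescent progenitors, over 5 bins of the 6-gene marker share (x axis, percent of UMIs). Points are sums over the cells of a bin with exact Poisson 95% intervals, and the dashed line is the gate; Akr1c18 goes from 30.5 CPM just under it to 1547 CPM in the highest bin, and Fabp4 from 1099 CPM to 25.2 CPM.

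Some genes varied between progenitors far more than their mean predicts for random sampling. At 2000 UMIs per cell, the ratio of variance to mean had a median of 1.01 over 7263 genes. It was 11.1 for Eln, which had a mean of 2.02 UMIs, was detected in 59.5% of progenitors and reached 63 UMIs in a cell. For H19 the ratio was 9.35, with a UMI in 74.4% of cells. Igfbp5 (4.85, 61.1% of cells), Mfap4 (4.99, 8.84% of cells) and Dlk1 (3.18, 13.8% of cells) were further stromal genes of high spread. Cd74, an antigen presentation gene, had a ratio of 8.66, and the mast cell protease Cma1 7.49, with a UMI in 13.5% of cells and up to 28 in a cell. Immune transcripts were therefore unevenly spread over the gated cells. Of the 1073 progenitors, 712 remained when cells with 5 or more UMIs of Cd74, S100a8, S100a9, Cma1, Cpa3 and Mcpt4 together were left out, an alternative chosen after seeing the data. Of the 297 higher genes, 273 were also higher without those cells, and of the 337 lower genes, 311.

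The same gates in the adult library, whose cells the adolescent rule did not use, chose 521 of 1378 stromal cells (37.8%, 35.2 to 40.4) and 857 other stromal cells. Adult progenitors were shallower, with a median of 6366 UMIs against 9127 in the adult other stromal cells. Of 5683 genes, 421 (7.41%) were at least 2-fold higher and 340 (5.98%) at least 2-fold lower in the adult progenitors. The higher lists shared 225 genes, 75.8% of the adolescent and 53.4% of the adult list, and the lower lists shared 194, 57.6% and 57.1%. Of the 297 adolescent higher genes, 272 were measured in the adult contrast and 269 of these had the same sign, and of the lower genes 273 of 287. Over the 5164 genes measured in both contrasts, Pearson's r of the log2 ratios was 0.82 and Spearman's rho 0.64, which describe genes that share chemistry, gates and reference.

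Most of the leading genes were past 2-fold in the same direction in the adult cells. Prlr was within 2-fold there, and both Prlr and Akr1c14 were under 20 CPM in both adult sums. Outside the leading genes, Dlk1 was within 2-fold in the adult cells, and C3 and Mfap4 were past it in the opposite direction. Akr1c18 stood at 343 CPM in the adult progenitors and 6.15 CPM in the adult other stromal cells, and Krtdap at 157 CPM and 0.916 CPM. Gap43 stood at 55.6 CPM and 0.655 CPM, Bmp7 at 73.4 CPM and 1.44 CPM and Wnt10b at 40.9 CPM and 1.44 CPM. Akr1c14 had an adolescent log2 ratio of 4.10 and an adult one of 1.38. On the lower side, Fabp4 stood at 219 CPM and 3278 CPM, Col4a1 at 185 CPM and 1902 CPM and Pparg at 6.91 CPM and 65.2 CPM. Dlk1 was at 2.30 CPM and 4.58 CPM, so that its adult log2 ratio was -0.86. Of the 30 further progenitor genes, 27 were at least 2-fold higher in the adult contrast. Il33, an alarmin cytokine, and Sfrp4, a Wnt inhibitor, had adult log2 ratios of 5.77 and 5.60 against adolescent ones of 1.02 and 0.94. Whether any of these ratios differ between the libraries was not tested.

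**Figure D5:**
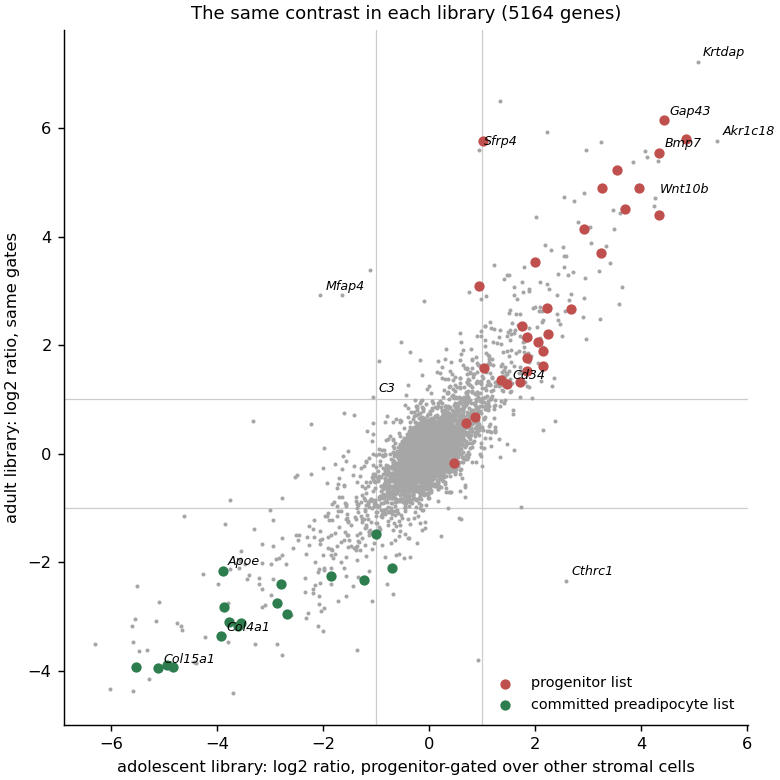
Log2 ratio of progenitor-gated over other stromal cells in the adolescent library (x axis) and in the adult library (y axis) for 5164 genes, with 30 further progenitor genes in red, committed preadipocyte genes in green and grey lines at 2-fold. Most genes past 2-fold in both libraries lie in the same-sign corners, and Cthrc1, Mfap4 and C3 lie in the opposite ones.

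Set against adult progenitors, adolescent progenitors were higher in 8 of 13 measured imprinted genes and lower in 9 of 18 complement, chemokine and cytokine genes. Of 5472 genes, 104 (1.90%) were at least 2-fold higher in the adolescent progenitors and 313 (5.72%) at least 2-fold lower, with a median log2 ratio of -0.06. Igf2 had 1880 UMIs in the adolescent progenitors and 0 in the adult ones, at least 195-fold higher against a floor of 3 UMIs in the adult sum. H19 stood at 2638 CPM against 6.91 CPM, 382-fold (257 to 596). Cthrc1, a secreted collagen triple helix repeat protein, stood at 553 CPM against 3.74 CPM, 148-fold (86.4 to 278). Ptn (pleiotrophin), Nrk, Thbs1 and Dlk1 followed, with log2 ratios of 6.38, 5.56, 5.49 and 5.40, and then Kcnj8, Akr1c14 and Fbn2 at 3.96, 3.70 and 3.65. None of the 13 imprinted genes was at least 2-fold lower, and their median was 2.29. The other stromal cells showed such a shift too: there, 164 of 5498 genes (2.98%) were at least 2-fold higher in the adolescent library and 224 (4.07%) lower, and 11 of 15 measured imprinted genes were higher and 1 lower, with a median of 2.06. H19 there stood at 1478 CPM against 19.1 CPM and Dlk1 at 1080 CPM against 4.58 CPM. The study's own transporter gene Slc7a10 stood at 23.6 CPM against 0.864 CPM, 27.3-fold (9.25 to 133), with the adult sum at the floor of 3 UMIs. In the other stromal cells Slc7a10 stood at 12.2 CPM against 0.262 CPM (59 and 2 UMIs), 46.8-fold (12.4 to 395), with the adult sum under that floor. The size of both ratios is therefore uncertain.

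On the lower side of the age contrast, C3, the central complement protein, stood at 46.8 CPM in adolescent and 1935 CPM in adult progenitors, 41.3-fold lower. Il1r2, the decoy interleukin-1 receptor, stood at 18.0 CPM against 886 CPM, and Pla1a, a phospholipase, at 20.3 CPM against 656 CPM. Sult1e1, the estrogen sulfotransferase, had 9 UMIs in the adolescent progenitors (0.804 CPM) against 82.3 CPM, 102-fold lower, and the chemokine Cxcl13 stood at 1.79 CPM against 134 CPM. Slc16a9, Inmt, Il18r1, Msx1 and Mmp3 completed the 10 lowest, with log2 ratios of -5.42, -5.34, -5.32, -4.02 and -3.58. Of the 18 complement, chemokine and cytokine genes, 1, Cxcl12, was higher, and the median was -1.13. In the other stromal cells 5 of 17 were lower and 1 higher (median -0.31), against the 4.07% and 2.98% of all genes, with C3 at 98 CPM against 937 CPM. Macrophage markers moved with this contrast, at 247 CPM in the adolescent and 690 CPM in the adult progenitors, with all 9 detected in both and Lyz2 leading both. B and T cell markers (93.3 CPM and 164 CPM) and mature adipocyte markers (7.24 CPM and 59.6 CPM) were also lower in the adolescent progenitors. Neutrophil markers went the other way, at 118 CPM and 25.6 CPM, as did mural markers, at 138 CPM and 22.5 CPM. The other stromal cells showed the macrophage and neutrophil shifts too (283 CPM and 557 CPM for macrophage, 131 CPM and 23.4 CPM for neutrophil markers). The 17 immediate early genes summed to 11381 CPM in the adolescent and 18225 CPM in the adult progenitors, led by Fos in both. Of 15 measured, 3 (Dusp1, Junb and Nr4a1) were at least 2-fold lower in the adolescent progenitors and 1 (Ier3) at least 2-fold higher. The part of these genes in the age contrast was not tested. Of the 30 further progenitor genes, Gap43 and Uchl1 were at least 2-fold higher in the adolescent progenitors, Procr, Il33 and Smpd3 at least 2-fold lower, and 25 within 2-fold.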

How the data were processed

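The authors made the libraries with 10x Genomics 3′ v2 chemistry and processed the reads with Cell Ranger against GRCm38, as named in the submitters' processing notes. The deposited files hold raw UMI counts per gene and cell barcode for 1 adolescent and 1 adult library (28010800 and 29517430 UMIs in 3915 and 5429 cells), and the deposited barcodes were used with no further filter. No deposited annotation of cell types was used here.

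UMIs were summed over the cells of each gate and scaled to CPM. Log2 ratios used 1 added UMI, and 2-fold was the line for a difference. The gate genes and Ptprc were left out of every contrast. Sums had exact Poisson, ratios conditional binomial and shares exact binomial 95% intervals. PCR copies were removed by UMIs, and intervals cover counting error only. Named genes were the 15 highest and 15 lowest of the adolescent contrast and the 10 highest and 10 lowest of the age contrast at 50 CPM or more, genes the study names, and list members. B and T cells were barcodes outside the stromal gate with at least 2 UMIs of B or of T cell genes. Shares were also computed after thinning each cell once to 2000 UMIs, which left out 10 progenitors and 6 other stromal cells. Doublets were marked with Scrublet and removed only as an alternative. Positions came from GENCODE M21 for 31024 of 31125 gene IDs (99.7%), and promoters from RefSeq. The contrast code was tested on simulated data. Python 3.11.15, numpy 2.4.6, scipy 1.17.1, pandas 2.3.3, scanpy 1.11.5 and matplotlib 3.10.9 were used.

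The members and gene lists were chosen with earlier results of these data known. Alternatives changed the gates, doublets, depth, low-level filter, pseudocount and scaling. Some genes that the naming rule or the lists include are not reported here.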

Additional observations from a re-analysis of the deposited data

Results flagged for a closer look

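A small set of genes differed by at least 2-fold between progenitors and other stromal cells in opposite directions in the adolescent and adult libraries. With 1 library per age, the difference between ages was not tested for any of them, and age and library cannot be told apart. C3, a complement protein, had a log2 ratio of -1.06 (95% counting interval -1.25 to -0.88) in the adolescent and 1.05 (1.00 to 1.10) in the adult library, at 46.8 CPM against 98 CPM and 1935 CPM against 937 CPM. Cthrc1, a secreted matrix protein, had ratios of 2.58 and -2.34, the adult one resting on 3.74 CPM against 20.3 CPM. Il1r2, the decoy interleukin-1 receptor, had ratios of -1.11 and 3.38, at 18.0 CPM against 38.8 CPM and 886 CPM against 84.8 CPM. Mfap4, a microfibril protein, had ratios of -2.05 and 2.92, at 118 CPM against 489 CPM and 42.3 CPM against 5.5 CPM. Ramp1, a receptor activity-modifying protein, had ratios of -1.64 and 2.93, at 10.4 CPM against 32.4 CPM and 40.6 CPM against 5.24 CPM.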

How the results depend on the processing

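Of 85 main values under the alternatives, 67 stayed within 1.5 times for counts, or within the counting interval for the share, and 18 moved. The progenitor share of stromal cells was 73.1% with the line at 0.05%, 60.7% with it at 0.2% and 58.8% without Pi16. It was 39.8% when every cell carrying a UMI of an endothelial or mural marker was removed, markers that include Tek and Kcnj8. That removal left 149 progenitors and 225 other cells. With the cells rich in immune transcripts left out, an alternative chosen after seeing the data, the share was 64.0%. Against cells with none of the 6 markers (73 cells), 690 genes were at least 2-fold lower in progenitors at 0.2% or more. A minimum of 5 CPM gave 508 higher and 734 lower adolescent genes, 703 and 661 adult genes and 263 and 673 genes by age, and a minimum of 100 CPM gave 108 and 94, 146 and 107, and 40 and 99; these alternatives change how many genes are measured. Of 874 single-gene values over 38 genes and 23 alternatives, 711 stayed within the counting interval, 163 moved, and no ratio past 2-fold changed sign. Srr, within 2-fold at 0.06 (log2), ranged from -0.21 to 2.34. The last was against the 73 cells with no marker, which had 0 Srr UMIs (0 CPM, upper limit 8.01). It therefore rests on the added UMI and is not a measured ratio. Beyond this the limits are 1 library per age, pooled mice and a gate that cuts a continuous range. No paired analysis was possible because each age has 1 library and no test was made.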

Other observations

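A few genes of antigen presentation were picked out after their values were seen because they were low in the adolescent progenitors, so they say nothing of the group as a whole, and 6.15% of all genes were at least 2-fold lower. H2-D1, a class I heavy chain gene, stood at 443 CPM against 980.2 CPM and H2-K1 at 259 CPM against 551 CPM. Psmb8, an immunoproteasome subunit, stood at 37.5 CPM against 100.4 CPM, and Psmb9 at 8.58 CPM against 34.5 CPM. Tap1, the peptide transporter beside them on the chromosome, stood at 10.1 CPM against 21.0 CPM. B2m, the class I light chain, was within 2-fold at 989.9 CPM against 1762 CPM. In the adult library the log2 ratios of Psmb8, Psmb9 and Tap1 were -0.22, -0.27 and -0.46, against -1.42, -2.0 and -1.05 in the adolescent one. Class I genes have near-identical copies that share reads, which leaves their values uncertain. The difference between libraries was not tested.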
